A study of Mus musculus with 8 samples.

Results

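A set of 10 genes of neutrophil granules and extracellular traps was followed in RNA from tumour neutrophils, chosen by symbol: the specific granule genes Ltf, Ngp, Camp, Lcn2, Cd177 and Chil3, the primary granule genes Elane, Mpo and Ctsg, and the trap enzyme gene Padi4. Of these 10 genes, 9 had a row among the 25572 genes of the table, and Ctsg (cathepsin G) was not analysed here. Neutrophils were sorted by flow cytometry from PyMT-N tumours borne by mice of the strain given as C57/B6, into CD54-positive (ICAM1high) and CD54-negative (ICAM1low) fractions, with no drug or genetic change named for either fraction. CD54, or ICAM1, is an adhesion molecule that binds beta-2 integrins. Each fraction gave 4 libraries, numbered 1, 2, 3 and 5, and each library was made from 150 pg of total RNA. The labels give neither the age of the mice nor whether a number stands for 1 animal, so the p-values below reflect only how far these libraries vary, which could be technical variation.

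Neutrophils store antimicrobial proteins in granules that form in sequence while the cell matures in the bone marrow. Primary (azurophil) granules are filled in the promyelocyte with myeloperoxidase and serine proteases such as elastase, and specific granules are filled later with lactoferrin, cathelicidin and lipocalin. Transcripts of the primary granule proteins are largely lost before the cell leaves the marrow, whereas some transcripts of the later granules persist in blood neutrophils. PADI4 converts arginines of histones to citrulline, a step in the release of chromatin as extracellular traps.

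The upstream sequences of the 4 genes that passed the test below are shown because these genes were all lower in CD54-positive libraries. They are the 250 bases before the RefSeq gene start, 5′ to 3′ on the gene's strand, from RefSeq on GRCm38.p6, matched by symbol. This build differs from the one named for the counts, so the positions serve only to identify the sequences. Capitals mark matches to TTNNGNAA, a loose form of the site of C/EBP factors, which drive granule gene transcription, searched on both strands with no overlap with another marked motif.
Ltf, chr9:111019042-111019291, plus strand: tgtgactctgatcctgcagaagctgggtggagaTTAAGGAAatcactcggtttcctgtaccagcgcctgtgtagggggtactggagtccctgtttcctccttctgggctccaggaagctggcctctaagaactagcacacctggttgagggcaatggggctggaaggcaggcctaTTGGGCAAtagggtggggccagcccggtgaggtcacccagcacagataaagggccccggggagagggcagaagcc
Ngp, chr9:110419558-110419807, plus strand: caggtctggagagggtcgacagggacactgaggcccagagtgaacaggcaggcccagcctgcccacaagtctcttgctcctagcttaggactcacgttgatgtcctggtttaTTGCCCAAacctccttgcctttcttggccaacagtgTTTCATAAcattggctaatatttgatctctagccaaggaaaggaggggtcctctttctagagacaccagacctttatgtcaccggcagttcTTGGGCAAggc
Cd177, chr7:24760312-24760561, minus strand: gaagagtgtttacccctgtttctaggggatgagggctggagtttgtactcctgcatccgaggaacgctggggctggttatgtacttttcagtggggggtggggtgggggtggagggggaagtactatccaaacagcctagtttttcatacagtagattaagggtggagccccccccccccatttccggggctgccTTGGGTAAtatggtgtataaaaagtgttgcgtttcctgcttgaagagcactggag
Padi4, chr4:140774204-140774453, minus strand: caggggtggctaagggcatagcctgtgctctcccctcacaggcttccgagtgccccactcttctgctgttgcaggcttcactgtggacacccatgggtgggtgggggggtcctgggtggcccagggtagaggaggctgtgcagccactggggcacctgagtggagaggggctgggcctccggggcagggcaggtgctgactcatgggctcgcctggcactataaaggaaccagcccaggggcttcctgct
Ltf had 2 matches, Ngp 3, Cd177 1 and Padi4 0. Ltf and Ngp both carried TTGGGCAA, which began 75 bases before the start in Ltf and 11 bases before it in Ngp. Lcn2 had 1 match and Chil3 had 3, and these letters were not in the windows of Camp, Elane, Mpo and Ctsg. The motif was found in 36.8% of the 32851 mouse promoter windows of the same length, so its presence sets no promoter apart. The 8 letters GAGGAAGT, a form of the site of the myeloid factor PU.1 searched on both strands, were in the windows of Elane and Mpo, against 2.44% of all windows. The TATA box TATAAA, searched on the gene's strand, was in those of Cd177 and Padi4, against 7.59% of all windows.

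Library totals ran from 15940080 to 21824788 estimated counts. The detection floor, 3 counts and for counting error only, equalled 0.121 to 0.263 CPM (library-size-normalised counts, with sizes adjusted by the trimmed mean of M values, TMM). Icam1 mRNA, an indirect check of a sort on surface protein, was at 48.2, 58.4, 42.4 and 122 CPM in CD54-positive replicates 1, 2, 3 and 5, and at 18.7, 9.25 and 4.31 CPM in CD54-negative replicates 1, 2 and 3. The library labelled CD54-negative replicate 5 held 138 CPM, more than any CD54-positive library, so the calls of the granule and trap genes and the counts for the lists they are set beside are also given without it. The neutrophil label was checked with 10 marker genes outside the 10 granule and trap genes, and all 10 had counts in every library. Their summed level was 1325 to 2976 CPM in CD54-positive and 4955 to 34680 CPM in CD54-negative libraries. Their log2 fold changes were negative in 10 of 10 (median -3.22), and 3 were past the threshold. Without CD54-negative replicate 5, the median log2 fold change of these markers was -1.996 and 5 were past the threshold. Ly6g, the surface antigen used to identify mouse neutrophils, was at 2 counts in CD54-positive replicate 1, under the floor. The 12 macrophage markers summed to 5499 to 15819 CPM in CD54-positive and 791 to 1113 CPM in CD54-negative libraries, with 9 higher and 0 lower (10 and 0 without CD54-negative replicate 5), and none was at 0 in all libraries. The 5 monocyte markers summed to 1004 to 1688 CPM in CD54-positive and 329 to 1529.5 CPM in CD54-negative libraries. Of these, Ccr2, Cx3cr1 and Ms4a4c were higher and Ly6c2 lower, with and without CD54-negative replicate 5.

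The granule genes that could be measured, and Padi4, were lower in CD54-positive than in CD54-negative libraries, by 4.54-fold for Chil3 to 22.2-fold for Camp as estimates. Of the 7 genes tested, Ltf, Ngp, Cd177 and Padi4 fell past the threshold and Camp, Lcn2 and Chil3 did not (quasi-likelihood F test of edgeR, with p adjusted by Benjamini-Hochberg over 13575 genes and a threshold of 0.05). Over all genes 0.273% were called lower and 1.22% higher. The median log2 fold change of the 7 tested genes was -3.64, against -0.07 over all genes. In each of the 7, every CD54-positive library lay below every CD54-negative library, a pattern found in 3.89% of the genes tested. These 7 genes were listed with earlier results of the same libraries known, and 2 further genes failed the filter on low counts. The neutrophil markers had negative log2 fold changes, as these genes did, the macrophage markers had positive ones and the monocyte markers had both. The part of these cell types in the result was not tested. In bulk RNA, fewer neutrophils in a fraction and less of these RNAs per neutrophil cannot be told apart.

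**Figure D1:**
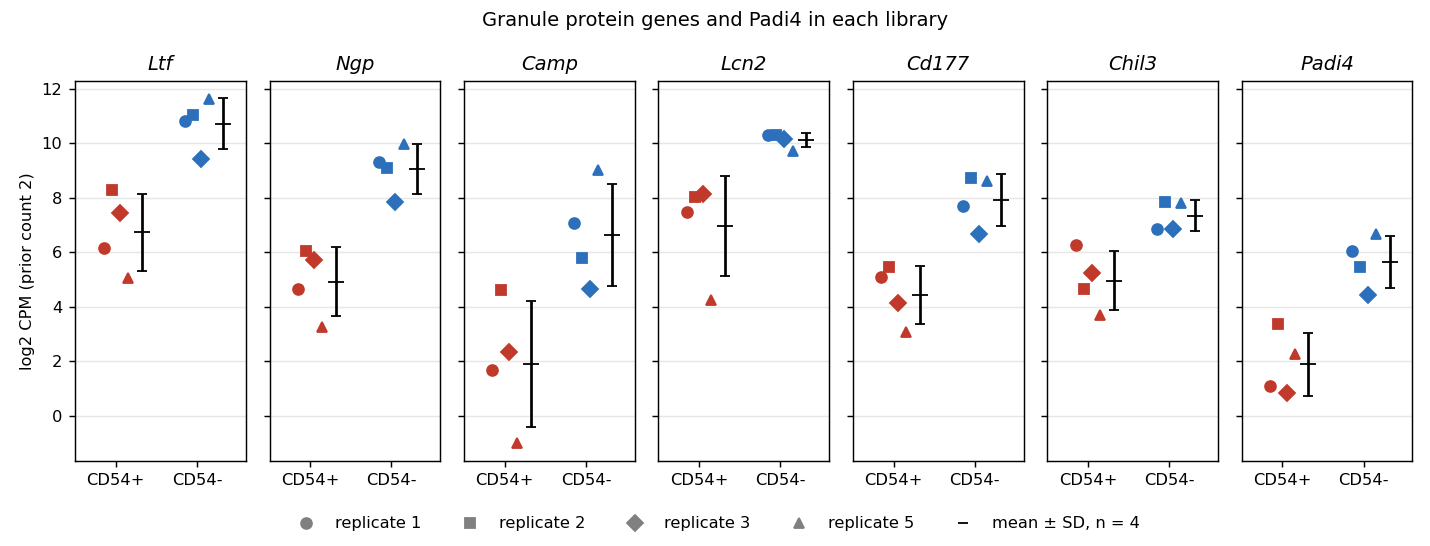
Levels of the 7 tested genes in each library, as log2 CPM with a prior count of 2, with CD54-positive libraries (red) left of CD54-negative libraries (blue). Symbols mark the replicate number and bars the mean ± SD of 4 libraries. The groups do not overlap for any of the 7 genes, and Camp has the widest spread within both groups.

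Ltf encodes lactoferrin, the iron-binding protein of specific granules. It stood at 71.8, 313, 173 and 33.3 CPM in CD54-positive replicates 1, 2, 3 and 5, against 1805, 2126, 692 and 3142 CPM in CD54-negative replicates 1, 2, 3 and 5. The highest CD54-positive library, replicate 2, stayed below the lowest CD54-negative one, replicate 3. The log2 fold change was -3.71 ± 0.77 (SE over 4 and 4 libraries; edgeR adjusted p = 0.043).

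Ngp encodes neutrophilic granule protein, a cystatin-like protein related to the cathelicidins. Its levels were 25.3, 65.7, 53.1 and 9.39 CPM in CD54-positive replicates 1, 2, 3 and 5 and 641, 545, 228 and 1021 CPM in CD54-negative replicates 1, 2, 3 and 5. As for Ltf, replicate 5 was the lowest of the CD54-positive and the highest of the CD54-negative libraries. The log2 fold change was -3.99 ± 0.71 (SE over 4 and 4 libraries; edgeR adjusted p = 0.0239), the smallest p among the 7 genes. Per length, the log2 ratio of Ngp to Ltf was -1.12 ± 0.32 in CD54-positive and -0.97 ± 0.20 in CD54-negative libraries (SD, n = 4), and the groups overlapped.

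Camp encodes the mouse cathelicidin, whose precursor is cut to an antimicrobial peptide. It was at 3.09, 24.3, 4.97 and 0.387 CPM in CD54-positive replicates 1, 2, 3 and 5, the last of these from 7 counts. In CD54-negative replicates 1, 2, 3 and 5 it was at 134, 55.4, 25.0 and 517 CPM. The groups nearly met, with 24.3 CPM in CD54-positive replicate 2 and 25.0 CPM in CD54-negative replicate 3. Camp had the largest estimate of the 7, a log2 fold change of -4.48 ± 1.25 (SE over 4 and 4 libraries), but missed the threshold (edgeR adjusted p = 0.108), which it passed with DESeq2 (adjusted p = 0.00044). The estimate was -3.11 without CD54-negative replicate 5 and -6.00 without CD54-positive replicate 2.

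Lcn2 encodes lipocalin 2, which binds bacterial siderophores and is also made by epithelial cells and macrophages. It was at 179, 262, 280.0 and 18.9 CPM in CD54-positive replicates 1, 2, 3 and 5, and at 1281, 1258, 1141 and 849 CPM in CD54-negative replicates 1, 2, 3 and 5. The CD54-positive replicates 1, 2 and 3 lay close together and replicate 5 lay far below them, while the CD54-negative libraries had a coefficient of variation of 17.5%, the smallest of the 7 genes. The log2 fold change was -2.61 ± 0.69 (SE over 4 and 4 libraries; edgeR adjusted p = 0.0889) and the adjusted p was 0.0551 without CD54-negative replicate 5. It was past the threshold with DESeq2 (adjusted p = 0.00273), with limma-voom (adjusted p = 0.0274) and without the filter on low counts (edgeR adjusted p = 0.0277). Without both libraries numbered 5, a choice made after seeing the data, it was also past it (log2 fold change -2.33; edgeR adjusted p = 0.0166). The 7 epithelial markers with a row summed to 8.17 to 24.5 CPM in CD54-positive and 4.63 to 68.4 CPM in CD54-negative libraries. Their highest sum was in CD54-negative replicate 5. Epcam was at or under the floor in 4 of the 8 libraries, with a mean of 1.05 ± 1.32 CPM in CD54-positive and 0.237 ± 0.364 CPM in CD54-negative libraries (SD, n = 4). Other epithelial markers were above it, with Krt8 and Krt18 at 39.6 and 24.6 CPM in CD54-negative replicate 5. Cdh1 was at 8.65 ± 4.94 CPM in CD54-positive and 0.847 ± 0.895 CPM in CD54-negative libraries, without overlap (SD, n = 4; edgeR adjusted p = 0.224). The part of epithelial cells and macrophages in the Lcn2 level was not tested.

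Cd177 encodes a glycoprotein of the neutrophil surface and of specific granule membranes. Its levels were 33.9, 43.8, 17.7 and 8.28 CPM in CD54-positive replicates 1, 2, 3 and 5, against 209, 421, 103 and 388 CPM in CD54-negative replicates 1, 2, 3 and 5. All CD54-positive libraries were below all CD54-negative ones, and in both groups the highest was replicate 2. The log2 fold change was -3.43 ± 0.65 (SE over 4 and 4 libraries; edgeR adjusted p = 0.0318).

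Chil3, or Ym1, encodes a chitinase-like lectin that mouse neutrophils and alternatively activated macrophages secrete. It was at 76.1, 24.9, 37.9 and 12.9 CPM in CD54-positive replicates 1, 2, 3 and 5 and at 116, 231, 116 and 226 CPM in CD54-negative replicates 1, 2, 3 and 5. Chil3 had the smallest estimate of the 7 genes, a log2 fold change of -2.18 ± 0.58 (SE over 4 and 4 libraries), but missed the threshold (edgeR adjusted p = 0.09, and 0.0754 without CD54-negative replicate 5). DESeq2 and limma-voom put it past the threshold (adjusted p = 0.00709 and 0.0163). Per length, the log2 ratio of Chil3 to Ltf was 0.36 in CD54-positive replicate 1 and -3.38 in CD54-positive replicate 2, a wider span than the -3.68 to -2.30 seen in CD54-negative libraries. Chil3 has close relatives in the mouse genome, so the assignment of reads among them is uncertain. The relative Chil4 had no row and was not measured, and Chil5 had at most 163 counts in a library, against 234 to 3891 for Chil3.

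Padi4 encodes the histone-citrullinating enzyme of extracellular traps. It stood at 2.04, 10.1, 1.69 and 4.69 CPM in CD54-positive replicates 1, 2, 3 and 5, from 43, 251, 35 and 85 counts. In CD54-negative replicates 1, 2, 3 and 5 it stood at 65.4, 43.3, 21.6 and 102 CPM. Its log2 fold change was -3.64 ± 0.77 (SE over 4 and 4 libraries; edgeR adjusted p = 0.0451). The groups did not overlap, and the highest CD54-positive library was again replicate 2.

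Of the primary granule genes of the set, Elane and Mpo had too few counts to pass the filter on low counts. Elane, neutrophil elastase, had 0, 4, 17 and 0 counts in CD54-positive replicates 1, 2, 3 and 5 and 0, 6, 0 and 0 counts in CD54-negative replicates 1, 2, 3 and 5. Its highest level was 0.821 CPM, in CD54-positive replicate 3. Mpo, myeloperoxidase, had 173 counts in that same library, or 8.35 CPM, and 0 counts in the other 7. A count of 0 in those libraries allows up to the floor of 0.121 to 0.263 CPM. No difference between the groups was detectable at this depth. Prtn3, the proteinase 3 gene that lies with Elane in the same granules, did pass the filter, at 2.57, 0.765, 2.90 and 0.221 CPM in CD54-positive replicates 1, 2, 3 and 5 and 4.05, 2.73, 11.6 and 0.263 CPM in CD54-negative replicates 1, 2, 3 and 5. The groups overlapped (log2 fold change -1.53 ± 1.23 SE over 4 and 4 libraries; edgeR adjusted p = 0.561).

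Levels of different genes were compared per length, as TPM (length-scaled shares of a library) computed with the deposited gene lengths. In CD54-positive libraries the order of median levels was Lcn2 (484 TPM), Ltf (122 TPM), Ngp (62.9 TPM), Chil3 (39.0 TPM), Cd177 (17.95 TPM), Camp (13.1 TPM) and Padi4 (2.75 TPM). In CD54-negative libraries it was Lcn2 (2683 TPM), Ltf (1803 TPM), Ngp (885 TPM), Camp (291 TPM), Cd177 (179 TPM), Chil3 (158 TPM) and Padi4 (48.7 TPM). Lcn2 and Ltf led in both groups and Padi4 came last. The ranges of neighbours in this order overlapped throughout CD54-positive libraries, and in CD54-negative libraries all did but Chil3 and Padi4. Ltf was above Ngp in each of the 8 libraries. The 9 genes together took 0.00927 to 0.0847% of the counts of a CD54-positive library and 0.222 to 0.461% of a CD54-negative one.

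The call of each of the 4 genes that fell depended on most single libraries, although leaving one out also leaves fewer to test. None of Ltf, Ngp, Cd177 and Padi4 was past the threshold without CD54-positive replicate 1, 2, 3 or 5 or without CD54-negative replicate 1 or 2, with edgeR adjusted p from 0.0556 to 0.145 in these 6 fits. All 4 remained past it without CD54-negative replicate 3 and without CD54-negative replicate 5. In the fit without CD54-negative replicate 5 their log2 fold changes were -3.37 for Ltf, -3.61 for Ngp, -3.23 for Cd177 and -3.22 for Padi4 (edgeR adjusted p from 0.021 to 0.0435). The share of all genes called lower changed too, from 0.273% with all libraries to 0 to 0.0637% in the 6 fits. It was 0.336% without CD54-negative replicate 3 and 1.69% without CD54-negative replicate 5. Without CD54-positive replicate 2 the log2 fold changes of Ltf and Padi4 were -4.38 and -4.36. Without both libraries numbered 5 those of Ltf and Ngp were -3.03 and -3.28, and Padi4 was not past the threshold (log2 fold change -3.21; edgeR adjusted p = 0.0777). All log2 fold changes of the 7 genes stayed negative when single libraries were left out. These fits share most of their libraries, so this adds no separate support.

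**Figure D2:**
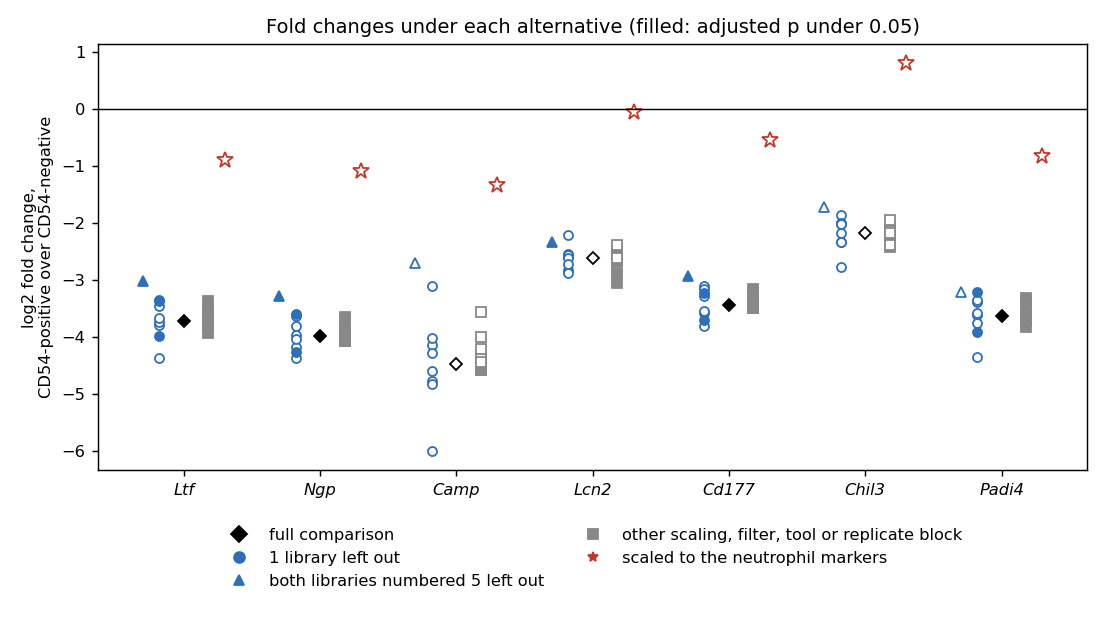
Log2 fold changes, CD54-positive over CD54-negative, of the 7 tested genes under each alternative, with filled symbols where the adjusted p was under 0.05. Values lie below 0 except that of Chil3 when libraries are scaled to the neutrophil markers, where it is 0.80, and that scaling moves all 7 genes up.

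The same genes were then set against the neutrophil markers in each library, as log2 CPM minus the mean log2 CPM of the 10 markers. Ltf was at 0.63 ± 1.16 in CD54-positive and 1.77 ± 0.54 in CD54-negative libraries, and Ngp at -1.19 ± 1.08 in CD54-positive and 0.09 ± 0.53 in CD54-negative libraries (SD, n = 4 each). Padi4 was at -4.22 ± 0.84 in CD54-positive and -3.32 ± 0.56 in CD54-negative libraries (SD, n = 4). Relative to the markers, the groups overlapped for each of the 7 genes. For Ngp, CD54-positive replicate 3 and CD54-negative replicate 3 were both at -0.221, and CD54-negative replicate 5 was at -0.402. The markers' mean log2 of CPM plus 1 was 10.4 in CD54-negative replicate 5, against 8.54, 8.89 and 8.06 in CD54-negative replicates 1, 2 and 3. These relative values were not compared without CD54-negative replicate 5. The differences, CD54-positive minus CD54-negative, ran from -1.87 for Camp through -0.29 for Lcn2 to 0.47 for Chil3. When edgeR was fitted over all genes with libraries scaled to these markers, none of the 7 genes passed the threshold. Their log2 fold changes then ran from -1.34 for Camp to 0.80 for Chil3, with edgeR adjusted p of 0.208 for Ltf, 0.138 for Ngp, 0.48 for Cd177 and 0.421 for Padi4. A p that misses the threshold does not show that these genes and the markers fell alike. Over all genes that scaling raised the median by 2.76 on the log2 scale, and 8577 genes were called higher and 3 lower, against 166 and 37 with TMM.

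**Figure D3:**
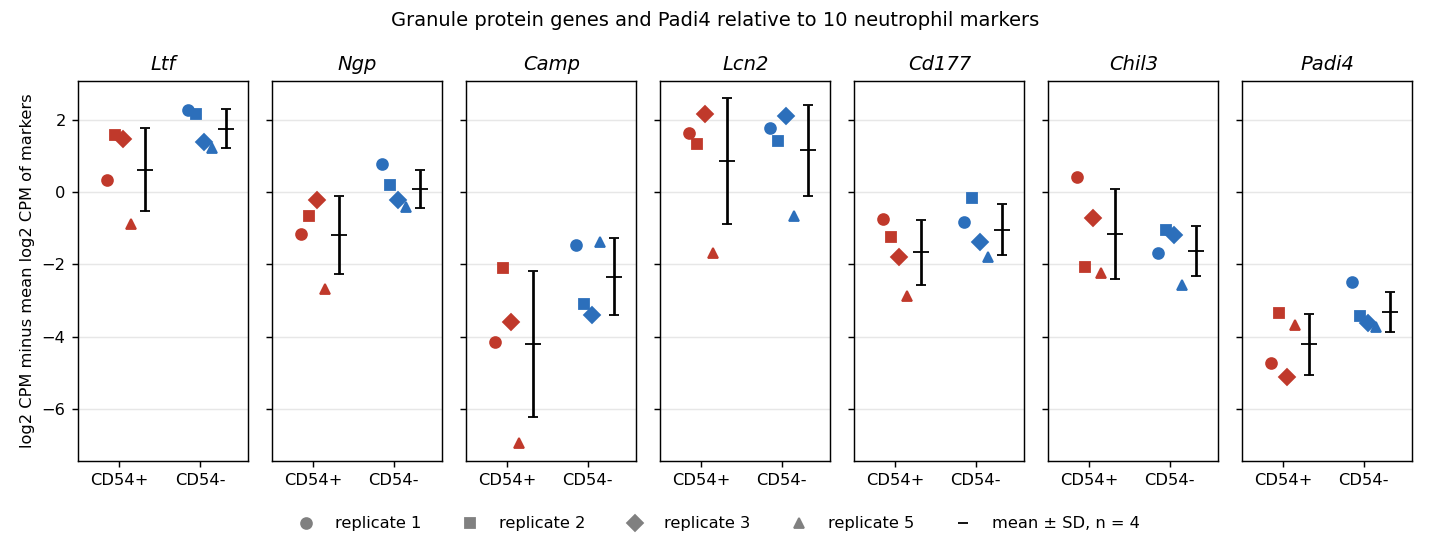
Log2 CPM of each of the 7 genes minus the mean log2 CPM of 10 neutrophil markers, per library, with CD54-positive (red) left of CD54-negative (blue) and the mean ± SD of 4 libraries. Unlike the CPM levels, these values overlap between the groups for all 7 genes, and Chil3 averages higher in CD54-positive libraries.

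A list of 55 companion genes of granules, their proteases, their transcription factors, their release and trap formation was examined beside the set. Of these, 52 had a row and 43 were tested. In CD54-positive libraries 2 were higher and 2 lower (4 higher and 2 lower without CD54-negative replicate 5, where Cst7 was tested too). The higher ones were Ctsc and Gusb and the lower ones Serpinb1a and Chil1. Over all genes 1.22% were called higher and 0.273% lower. Without CD54-negative replicate 5, 337 genes were called higher and 241 lower of 14286 tested. At an unadjusted p under 0.05, 16 of the 43 were lower and 7 higher, directions in which 8.96% and 7.96% of all genes reached that p. The median log2 fold change of the 43 was -0.71 and 28 were negative, against a median of -0.07 and 52.3% negative over all genes.

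**Figure D4:**
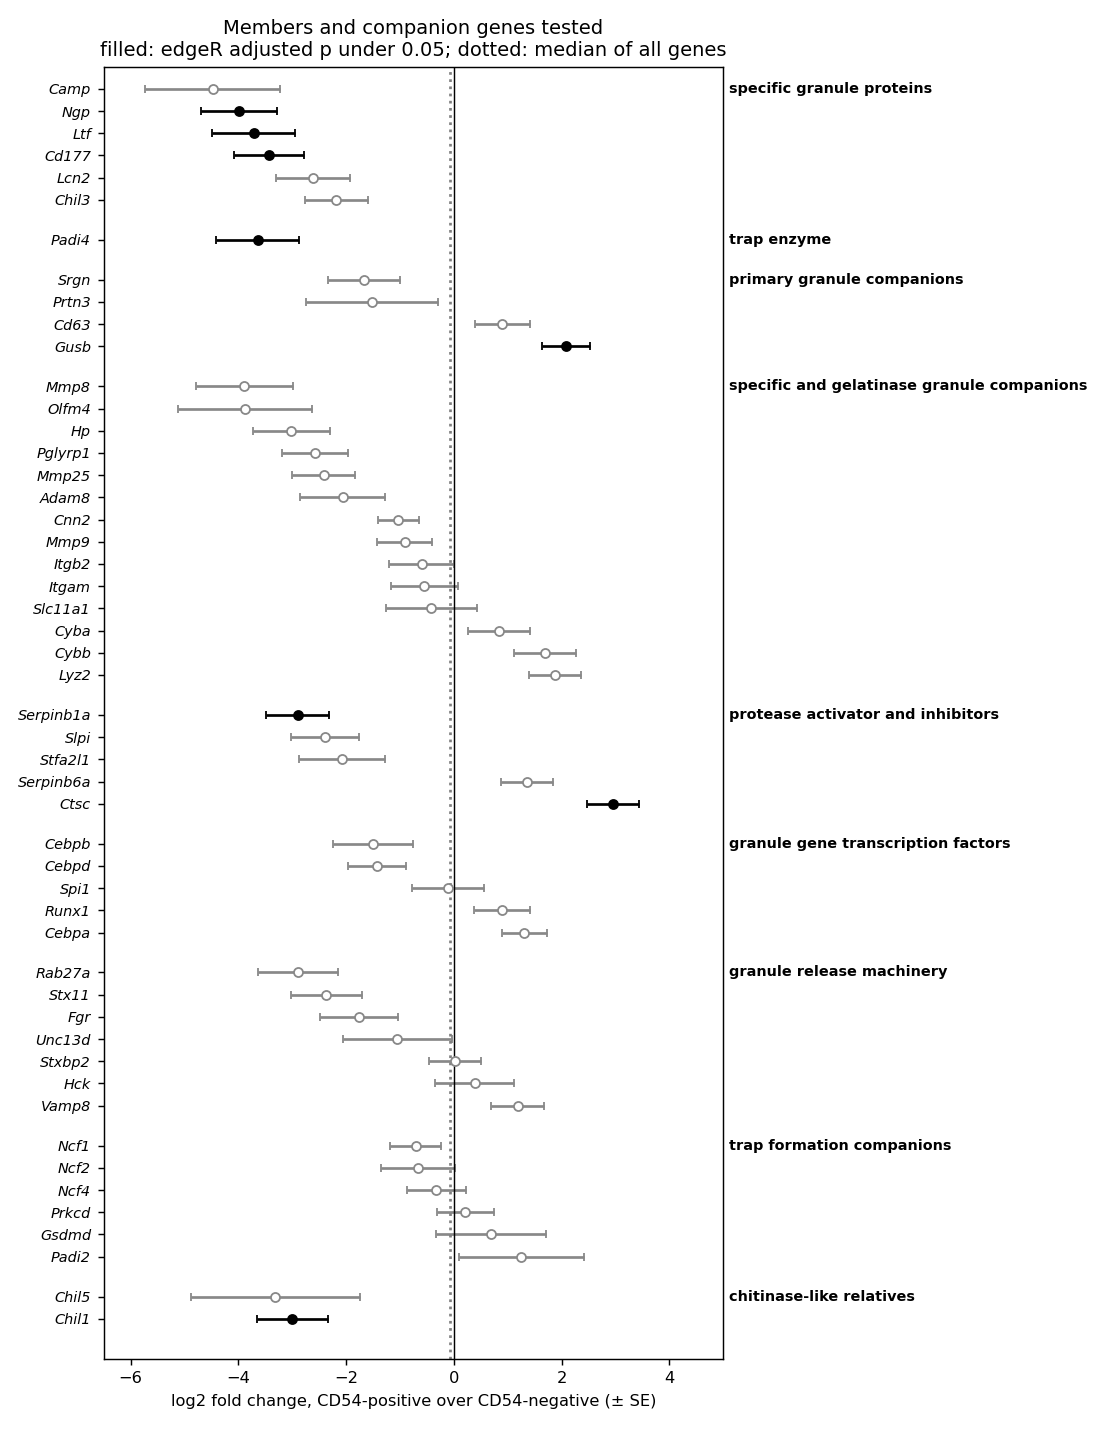
Log2 fold changes, CD54-positive over CD54-negative, ± SE for the 7 tested genes and 43 companion genes, by group. Filled points had an edgeR adjusted p under 0.05, the solid line is 0 and the dotted line is the median of all genes, -0.07. The specific granule proteins of the set all lie below 0, whereas the specific and gelatinase granule companions, the release machinery and the trap companions lie on both sides.

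Among companions in specific and gelatinase granules, 11 of 14 tested had negative log2 fold changes and 0 were past the threshold (edgeR; 7 lower and 2 higher at an unadjusted p under 0.05; 1 higher and 0 lower past the threshold without CD54-negative replicate 5). Mmp8, neutrophil collagenase, was at 13.6, 38.3, 59.6 and 3.09 CPM in CD54-positive replicates 1, 2, 3 and 5 and at 337, 643, 97.5 and 623 CPM in CD54-negative replicates 1, 2, 3 and 5, without overlap (log2 fold change -3.89 ± 0.90 SE over 4 and 4 libraries; edgeR adjusted p = 0.0583). Hp, haptoglobin, and Pglyrp1, a peptidoglycan-binding protein, had log2 fold changes of -3.02 ± 0.71 and -2.58 ± 0.61 (SE over 4 and 4 libraries; edgeR adjusted p = 0.0614 for both). The gelatinase gene Mmp9 stood at 1104 ± 428 CPM in CD54-positive and 2075 ± 1014 CPM in CD54-negative libraries, with overlap (SD, n = 4; edgeR adjusted p = 0.395). The opposite sign was found for Lyz2, lysozyme, and Cybb, the NADPH oxidase subunit of specific granule membranes, both also made by macrophages. Lyz2 was at 6102 ± 1382 CPM in CD54-positive and 1668 ± 481 CPM in CD54-negative libraries (SD, n = 4; edgeR adjusted p = 0.0803). It was the 1 gene of these companions past the threshold, and higher, without CD54-negative replicate 5. Cyba also had a positive log2 fold change (0.84, edgeR adjusted p = 0.491), with overlap between the groups.

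Genes that act on the primary granule proteases differed in direction. Ctsc, the dipeptidyl peptidase that activates elastase, proteinase 3 and cathepsin G and that macrophages also make, was at 4320, 2287, 2178 and 3554 CPM in CD54-positive replicates 1, 2, 3 and 5 and at 311, 362, 402 and 525 CPM in CD54-negative replicates 1, 2, 3 and 5. It rose by 2.95 ± 0.48 on the log2 scale (SE over 4 and 4 libraries; edgeR adjusted p = 0.0167), although its substrate Elane was too low to measure in both groups. Serpinb1a, an inhibitor of neutrophil serine proteases, was at 3.66, 16.7, 8.59 and 7.62 CPM in CD54-positive replicates 1, 2, 3 and 5 and at 40.6, 82.1, 57.1 and 92.9 CPM in CD54-negative replicates 1, 2, 3 and 5. Its log2 fold change was -2.90 ± 0.59 (SE over 4 and 4 libraries; edgeR adjusted p = 0.0405). Gusb, the lysosomal beta-glucuronidase that is also stored in azurophil granules, averaged 732 ± 255 CPM in CD54-positive and 173 ± 41.1 CPM in CD54-negative libraries (SD, n = 4; log2 fold change 2.08; edgeR adjusted p = 0.0451). Srgn, the proteoglycan core on which granule proteases are packed, averaged 435 ± 99.5 CPM in CD54-positive and 1383 ± 1483 CPM in CD54-negative libraries (SD, n = 4; edgeR adjusted p = 0.236). Ctsc was not past the threshold without CD54-positive replicate 1 (edgeR adjusted p = 0.0538) or without CD54-negative replicate 1 or 2 (0.0642 and 0.0659). Gusb was past it only without CD54-negative replicate 5 among the fits that left out 1 library, with edgeR adjusted p from 0.0848 to 0.118 in the other 7, and scaling by relative log expression (RLE) ended its call (edgeR adjusted p = 0.0543). Serpinb1a was past it only without CD54-negative replicate 3 or 5 (edgeR adjusted p from 0.0643 to 0.128 in the other 6 fits), and was not past it without both libraries numbered 5 (log2 fold change -2.60; edgeR adjusted p = 0.0658) or with libraries scaled to the neutrophil markers (log2 fold change -0.21; edgeR adjusted p = 0.826). Without CD54-negative replicate 5 the genes of this group past the threshold also included Cst7, a cystatin, which was higher. Cst7 failed the filter on low counts with all libraries. It had 2, 0 and 0 counts in CD54-negative replicates 1, 2 and 3, so it passed the filter in that fit only through the CD54-positive libraries. Its call there is therefore no separate support.

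Chil1, a chitinase-like relative of Chil3 that is stored in human specific granules, was at 38.2, 44.4, 30.9 and 8.83 CPM in CD54-positive replicates 1, 2, 3 and 5 and at 195, 239, 77.5 and 467 CPM in CD54-negative replicates 1, 2, 3 and 5. The groups did not overlap and the log2 fold change was -3.0 ± 0.66 (SE over 4 and 4 libraries; edgeR adjusted p = 0.0496). It was past the threshold without CD54-negative replicate 3 or 5 but not without any of the other 6 libraries (CD54-positive replicates 1, 2, 3 and 5 and CD54-negative replicates 1 and 2), with edgeR adjusted p from 0.103 to 0.144. Without both libraries numbered 5 its log2 fold change was -2.16 (edgeR adjusted p = 0.0499), and RLE scaling ended the call (edgeR adjusted p = 0.0531). Scaled to the neutrophil markers, its log2 fold change turned to 0.08 (edgeR adjusted p = 0.919). Its paralog Chil5 was tested from few counts and did not pass (edgeR adjusted p = 0.316).

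No granule gene transcription factor was past the threshold in edgeR, with all libraries (5 tested) or without CD54-negative replicate 5 (6 tested). With all libraries, 1 was lower and 1 higher at an unadjusted p under 0.05. Cebpe, the C/EBP factor of specific granule formation, was too low to measure, with at most 9 counts in a CD54-positive and 35 counts in a CD54-negative library. Cebpa, which acts early in the granulocyte lineage, averaged 123 ± 32.7 CPM in CD54-positive and 49.8 ± 16.9 CPM in CD54-negative libraries (SD, n = 4; edgeR adjusted p = 0.155). Cebpd, a C/EBP factor of later stages, averaged 11.5 ± 1.13 CPM in CD54-positive and 31.1 ± 15.5 CPM in CD54-negative libraries (SD, n = 4; edgeR adjusted p = 0.219). The groups did not overlap for either gene.

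Genes of granule release and the trap companions of Padi4 did not pass the test. Rab27a, the small GTPase that brings granules to the membrane, and Stx11, a syntaxin of granule exocytosis, had log2 fold changes of -2.90 ± 0.74 and -2.37 ± 0.66 (SE over 4 and 4 libraries; edgeR adjusted p = 0.0814 and 0.106), with overlap between the groups. None of the 7 tested release genes and none of the 6 tested trap companions was past the threshold in edgeR, with or without CD54-negative replicate 5, with 3 lower and 1 higher release genes and 0 trap companions at an unadjusted p under 0.05. Padi2, the Padi4 relative found in many leukocytes, stood at 7.79, 18.8, 23.6 and 43.1 CPM in CD54-positive replicates 1, 2, 3 and 5 and at 4.56, 0.415, 33.3 and 0.877 CPM in CD54-negative replicates 1, 2, 3 and 5 (log2 fold change 1.25 ± 1.15 SE over 4 and 4 libraries; edgeR adjusted p = 0.618). Ncf1, an NADPH oxidase subunit needed for one route of trap release, had a log2 fold change of -0.71 ± 0.47 (SE over 4 and 4 libraries; edgeR adjusted p = 0.478).

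The genes whose levels followed 4 of these genes most closely over the 8 libraries were taken from 7517 genes with a mean log2 CPM of at least 4, as the smallest root mean square difference of log2 CPM centred on each gene's mean. The libraries share the group difference, so this likeness is a description. For Ltf they were Mmp8 (0.58), Retnlg (0.68) and Ifitm6 (0.70). For Camp they were Mmp8 (1.15), Ceacam10 (1.25) and Pi16 (1.31), at larger distances than for the other 3 genes. For Padi4 they were S100a8 (0.73), Hp (0.76) and Mapk13 (0.78). For Chil3 they were Qsox1 (0.40), Mgst1 (0.41) and Mfsd6 (0.43).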

How the data were processed

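RNA sequencing libraries were made with the QIAseq FX Single Cell RNA kit, per the labels' protocols. The submitters' processing notes name Trim Galore 0.6.6, Salmon 1.9.0 and the build GRCm39 (mm39); the annotation and the way transcripts were summed are not given in those notes or the labels. The authors deposited estimated counts per gene with a length per gene, and each sample's description names its column. Of 25669 rows, 25572 were kept, a single row for each identifier. For the 88 repeated identifiers the other rows were dropped. Of the identifiers kept, 6482 took a symbol from the reference names. The estimated counts were rounded. Genes were filtered with edgeR's filterByExpr, scaled by TMM and compared with edgeR 4.0.16 in R 4.3.3 (robust glmQLFit and glmQLFTest, group as the only term). Genes that failed the filter are called too low to measure. CPM use TMM-adjusted library sizes.

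The granule genes and the lists were chosen with earlier results of these data known. The genes named are the 10 granule and trap genes, companion genes past the threshold, at least the 2 of each companion group with the smallest p and, for Ltf, Camp, Chil3 and Padi4, the 3 genes most like them in pattern; other companions illustrate a count and were picked after their values were seen. The scripts were tested on simulated data for this comparison. Alternatives were other scalings, filters and tools (DESeq2 1.42.0, limma-voom with limma 3.58.1), a replicate term and leaving out libraries. The sources mention no molecular identifiers, so floors cover counting error only.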

Additional observations from a re-analysis of the deposited data

Results flagged for a closer look

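In 32 groups of 4 libraries examined (9 granule and trap genes and 7 marker lists), 5 held a library far from the others. The gap to its nearest neighbour was 0.913 to 1 of the group's range. Chance gives about 1 in 20 for normally distributed values, which these levels need not be. For Mpo and Elane the gap is the whole range, because the rest of the group was at 0 counts, so that rate does not apply to them. Mpo was at 8.35 CPM in CD54-positive replicate 3 and at 0 in the rest of its group, and Elane at 0.356 CPM in CD54-negative replicate 2 and at 0 in the rest of its group. The summed epithelial markers were at 68.4 CPM in CD54-negative replicate 5, against 8.30 CPM in the nearest library. The summed lymphocyte markers were at 144 CPM in CD54-negative replicate 2, against 9.999 CPM in the nearest. In CD54-positive libraries the same sum ran from 49.9 to 387 CPM. All 6 tested lymphocyte markers had positive log2 fold changes (median 2.38), with 0 past the threshold in edgeR. The summed proliferation and precursor markers were at 311 CPM in CD54-positive replicate 5, against 165 CPM in the nearest.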

How the results depend on the processing

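The number of granule and trap genes past the threshold was 4 lower and 0 higher in the main comparison. It was 0 lower when scaled to the neutrophil markers and 7 lower with DESeq2, and 0 to 4 lower when 1 library was left out; no gene of the 7 was called higher in any setting. Among these 7 the only change of sign was that of Chil3, 0.80 with neutrophil marker scaling, where the median of all genes moved by 2.76. Over all genes, the 166 higher and 37 lower genes became 584 and 649 with DESeq2, 480 and 376 with limma-voom, 8577 and 3 with neutrophil marker scaling, and 4 to 337 higher and 0 to 241 lower when 1 library was left out. Higher genes numbered 258 with library sizes only. Lower genes numbered 120 with no filter, 61 when 10 CPM were required in 4 libraries and 190 without both libraries numbered 5. Companion genes, 2 higher and 2 lower, became 1 and 1 with RLE scaling, 28 and 0 with neutrophil marker scaling, and 4 and 6 with limma-voom. Lower companions numbered 10 with DESeq2, 8 with no filter, 5 with the stricter filter and 1 without both libraries numbered 5; leaving out 1 library gave 0 to 4 higher and 0 to 6 lower. The causes of these changes were not tested. With the replicate block the counts were 280 higher and 261 lower genes, 5 lower granule and trap genes (Lcn2 added, edgeR adjusted p = 0.0314) and 4 lower companions; the labels do not say that a number marks 1 animal, and the libraries were not treated as pairs. The deviations of same-numbered libraries from their group means correlated across genes at -0.15 for number 1 and at 0.12, 0.15 and 0.38 for numbers 2, 3 and 5. Of the CD54-positive libraries, those numbered 2 and 5 correlated best with their own number and those numbered 1 and 3 did not. Upper-quartile scaling and library sizes only moved the median of all genes by 0.13 and 0.24. The spread between libraries limits what a missed threshold shows.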

Other observations

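Markers of other cells that share granule genes were low or split. Among 7 genes of mast cells, basophils and eosinophils, which make some of the same classes of granule protein, 6 had a row and only Siglecf passed the filter on low counts, at 16.7 ± 9.65 CPM in CD54-positive and 21.5 ± 13.6 CPM in CD54-negative libraries (SD, n = 4; edgeR adjusted p = 0.825). Genes of dividing cells had positive estimates that did not pass the threshold with all libraries. Without CD54-negative replicate 5, Mki67 was past it and higher, the only call among the proliferation and precursor markers. The proliferation gene Mki67 stood at 46.8 ± 30.0 CPM in CD54-positive and 11.4 ± 8.66 CPM in CD54-negative libraries (SD, n = 4; edgeR adjusted p = 0.167), with overlap. Ms4a3, which marks granulocyte precursors, was at or under 3 counts in all 8 libraries. Kit, the receptor of stem cell factor, stood at 15.99 ± 8.92 CPM in CD54-positive and 75.3 ± 36.3 CPM in CD54-negative libraries without overlap (SD, n = 4; edgeR adjusted p = 0.0939). The cystatin F gene Cst7, an inhibitor of cathepsin C, failed the filter but did not overlap between the groups, with 8, 224, 368 and 206 counts in CD54-positive replicates 1, 2, 3 and 5 and 2, 0, 0 and 4 counts in CD54-negative replicates 1, 2, 3 and 5. Gfi1, a repressor needed for granulocyte formation, likewise had 13, 68, 6 and 28 counts in CD54-positive replicates 1, 2, 3 and 5 and 0 counts in every CD54-negative library. Cst7 and Gfi1 were singled out after their values were seen.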
